A study of Mus musculus with 16 samples.

Results

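The cytosolic ribosomal protein (RP) genes were examined in single light zone (LZ) germinal center (GC) B cells of the mouse lymph node. They were chosen by name, as the genes with an Rps, Rpl, Rplp or Rpsa symbol of the standard form, and by a mean of at least 1 CPM, counts scaled by the total of the cell to parts per 1e6, over the cells. The name fitted 83 of 56691 genes and 75 of these passed the level: 30 genes of the small subunit, 42 of the large subunit and 3 of the stalk. No measured difference between cells or hosts entered this rule, but earlier results of these data were known when the genes were chosen. The 637 cells came from 8 recipient mice (hosts) that had been given B1-8hi BTKC481S and B1-8hi BTKWT B cells together. B1-8hi cells carry a knock-in heavy chain that binds the hapten NP. Acalabrutinib blocks BTK, a kinase downstream of the B cell receptor, and BTKC481S resists it. Hosts A7, A8, A10, A11 and A12 received acalabrutinib by gavage and hosts V5, V7 and V9 received vehicle. By the study's methods the hosts were young male mice, primed with ovalbumin and boosted with NP-ovalbumin in the footpad. The labels list 16 samples, a genotype within a host each. The names of the cells give host, plate and well but no genotype, so both genotypes were pooled within the host, the host was the replicate, and BTKC481S cells were not compared with BTKWT cells. An acalabrutinib host therefore mixes cells that are sensitive and cells that are resistant to the drug. The transferred cells respond to 1 hapten, and the host's own B cells were not sorted.

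RP genes encode the proteins that, with the ribosomal RNAs, form the small subunit, which reads the mRNA, and the large subunit, which joins the amino acids. The stalk proteins Rplp0, Rplp1 and Rplp2 recruit the elongation factors. Because a ribosome holds nearly all of these proteins in equal amounts, their mRNAs are made and kept in close balance, and most begin with a terminal oligopyrimidine (TOP) tract through which mTORC1 controls their translation. In the GC, LZ B cells that capture antigen and receive T cell help switch on Myc, which drives ribosome production and growth before the cells divide.

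Host totals lay between 26778559 and 114987280 counts, with 45 to 130 cells in a host. In the file 13 of 14 B cell and GC genes had a mean of at least 1 CPM. The exception was Ms4a1, listed at 0 counts. Of 8 T cell genes 4 had at least 1 CPM, and the list as a whole held between 0.0170% and 0.0377% of counts by host. Lck was the highest of them, at 265 CPM with a count in 51.6% of cells. Of 8 macrophage genes 3 had at least 1 CPM, with 0.00219% to 0.00343% of counts. All 5 plasma cell genes did, and the highest was Jchain, at 879 CPM with a count in 91.2% of cells. Hosts A7 and V5 stood apart from the others. Their cells had the lowest median totals, 605715 and 599290 counts against 712479 to 946463 in the other hosts. For 35 long genes that are mainly used in other tissues, the summed share was 0.0701% and 0.0801% of counts in A7 and V5 and between 0.137% and 0.262% elsewhere. One of these hosts received acalabrutinib and the other vehicle.

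RP genes were detected in nearly every cell, and at levels that followed their length. Of the 75 genes 69 had a count in at least 80% of cells and 56 had a mean of at least 100 CPM. The highest on the CPM scale were Rpl4 (1035 CPM), the stalk base Rplp0 (818 CPM), Rpl3 (716 CPM), which lies beside the peptidyl transferase center, Rps3 (623 CPM), which lines the mRNA entry channel, Rps4x (601 CPM) and Rpl8 (576 CPM). Rplp0 ranked second among the RP genes in all 8 hosts. Over the 74 genes with a coding sequence in GENCODE M21, coding length and mean CPM rose together (Spearman 0.81, a description across genes, which are not independent replicates). What the deduplication of reads by exact position did to this relation was not tested. Divided by coding length, the middle 50% of the genes lay between 272 and 450 CPM per kb, a span of 1.66-fold. The ends of that scale were Rpl41, at 1765 CPM per kb, and Rpl39l at 6.86 CPM per kb. Rpl41 has the shortest coding sequence, with 75 bases in a span of 571 bases. Reads in introns and noncoding parts of exons count too, and the divisor leaves these parts out, so the scale is rough for such short genes. Rplp0 (861 CPM per kb), Rps3 (854 CPM per kb) and Rpl4 (823 CPM per kb) stayed near the top after this division.

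A few RP genes were at or near 0. Of the 8 genes with a fitting name but under 1 CPM, Rpl35, Rps4l, Rpl32l, Rpl10l, Rpl24 and Rpl35a had 0 counts in all cells, which allows up to 0.00584 CPM by counting error alone, Rps10 had 0.011 CPM and Rpl3l had 0.544 CPM. Just above the limit were Rpl39l at 1.05 CPM, with counts in 4 of 637 cells, and Rpl6l at 2.01 CPM, with counts in 577 cells. Rpl35, Rpl24, Rpl35a and Rps10 encode proteins that every ribosome carries. In GENCODE M21, 7 of the 80 fitting genes with a coding sequence had at least 90% of their coding bases under another annotated gene. They included Rpl35, Rpl24, Rpl35a and Rps10, below 1 CPM, Rpl13a at 35.7 CPM and, at a higher level, Rpl13 at 268 CPM. Of the other 73 genes, 5 were below 40 CPM and 2 below 1 CPM, the latter Rpl10l and Rpl3l. Reads that fall in more than 1 gene are commonly left uncounted, but what overlap did to these levels was not tested, and M21 belongs to another genome build than the counts. The levels of these genes are therefore uncertain.

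Among the related gene pairs, the genes of the standard ribosome were far above the copies known from testis or muscle, here on the scale of CPM per kb of coding sequence. Rpl10l, a testis gene, had 0 counts against 451 CPM per kb for Rpl10. Rpl3l, a gene of heart and skeletal muscle, had 0.446 CPM per kb, from 2 cells, against 592 for Rpl3. Rpl39l, also of testis, had 6.86 CPM per kb against 348 for Rpl39. Rps4l had 0 counts, while Rps4x had 762 CPM per kb. Rps27l, which p53 induces, was nearer to its relative, with 180.0 CPM per kb against 401 for Rps27. The other 3 pairs involve genes that the name pattern leaves out. Rpl22l1 had 112 CPM per kb and Rpl22 had 299. Rpl7l1 had 189 CPM per kb, with counts in 267 cells, and Rpl7 had 545, with counts in 616 cells. Rpl36al had 4.08 CPM per kb and Rpl36a had 218. In Rpl36al 95.3% and in Rpl7l1 100% of the coding bases lie under another gene. Further RP genes outside the pattern include Rps3a1 at 432 CPM and Fau at 209.8 CPM.

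The start sites of RP genes were searched for the TOP tract, a C followed by at least 4 bases that are each C or T, on the strand of the gene. RefSeq start regions (GRCm38.p6) were at hand for 54 of the 75 genes. A match to this form began within 5 bases of the annotated start in 25 of 54 RP genes (46.3%) and in 5718 of all 27025 genes (21.2%). A match could be the inner part of a longer tract that began further upstream. In Rpl34, for example, the whole tract began 17 bases before the annotated start. Counted in the same way, matches of at least 8 bases stood there in 17 RP genes (31.5%) and in 5.17% of all genes. With a window of 20 bases, chosen after the first result was seen, 45 of 54 RP genes (83.3%) and 53.3% of all genes held a match. One of at least 8 bases stood in 28 RP genes (51.9%) and 16.6% of all genes. These are matches of letters near an annotated start and not measured transcript ends. The following 30-base windows show the tract, in capitals, for Rps6, the target of S6 kinase, for 6 genes that span both subunits and the stalk, for Rpl27a, which is described with the cycling cells, and for the highest gene by CPM, Rpl4, whose tract begins 17 bases before the annotated start.
Rps6 (chr4:86857347-86857376, minus strand): aagtcgggCCTCTTTTTCgtgacgcctccc
Rps9 (chr7:3704028-3704057, plus strand): cgccttgtCTCTCTTTgtctcgggcctgag
Rps18 (chr17:33955646-33955675, minus strand): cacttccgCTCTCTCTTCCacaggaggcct
Rps27 (chr3:90213629-90213658, minus strand): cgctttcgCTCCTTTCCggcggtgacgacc
Rpl15 (chr14:18270969-18270998, minus strand): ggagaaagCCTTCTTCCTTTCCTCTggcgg
Rpl27a (chr7:109519183-109519212, plus strand): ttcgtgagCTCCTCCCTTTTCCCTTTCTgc
Rpl38 (chr11:114668572-114668601, plus strand): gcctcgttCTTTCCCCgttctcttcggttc
Rplp2 (chr7:141447639-141447668, plus strand): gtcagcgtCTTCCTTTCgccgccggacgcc
Rpl4 (chr9:64173362-64173391, plus strand): tgacaagtCTTTCCTTTTCCTgtgggagca
The tracts of Rpl27a, Rpl15 and Rpl4 run for 20, 17 and 13 bases, and the Rpl38 tract begins at the annotated start itself. The Rpl4 tract lies wholly upstream of the annotated start and does not reach it.

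RP genes took 1.57% of the deposited counts of a cell on average (median 1.47%, range 0.159% to 7.08% over 637 cells). Reads were deduplicated by exact position without molecular identifiers. What this did to the share and to its relation with depth was not tested, so the share is one of counts and not of transcripts. The mean share over the cells of a host was 2.21% in A7, 1.46% in A8, 1.57% in A10, 1.52% in A11 and 1.38% in A12, and 2.10% in V5, 1.52% in V7 and 1.35% in V9. A7 and V5 were the 2 highest hosts, and the other 6 lay between 1.35% and 1.57%. Within a host the SD over cells was 0.404 to 0.877 percentage points, and 5 cells were above 4%. Across all cells the share fell with the total count (Spearman -0.345) and rose with the share of the mitochondrial genome (0.500). These pooled values mix hosts whose means differ. Within hosts the correlation with the mitochondrial share was 0.719 in A7 and 0.664 in V5 and ran from 0.0857 (A10) to 0.575 (V7) in the others. The correlation with the total count was -0.581 and -0.588 in A7 and V5, and in the other hosts it lay between -0.326 and 0.0138.

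**Figure D1:**
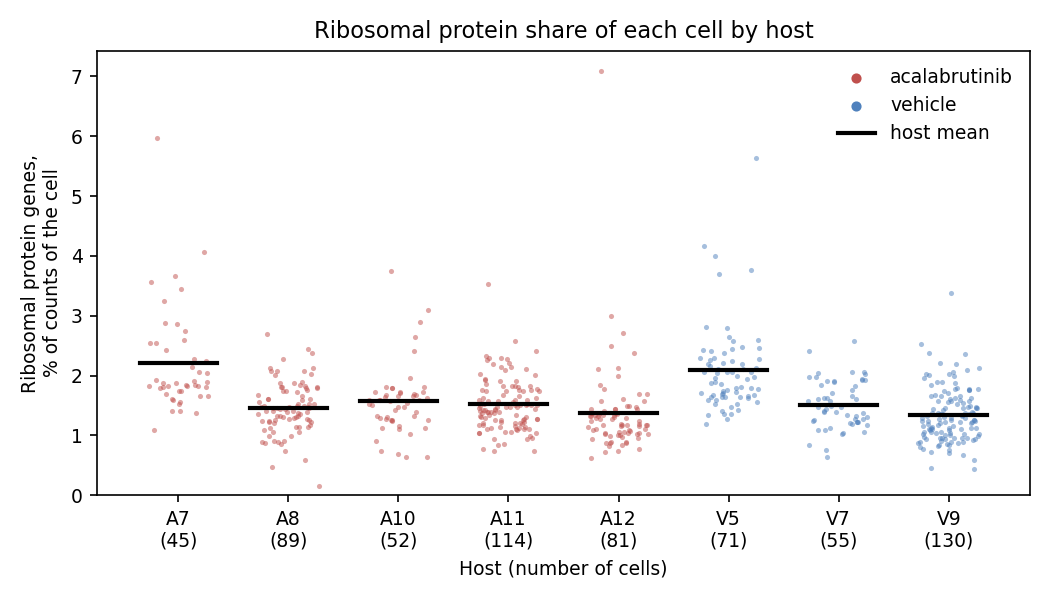
Share of the counts of each cell in RP genes, in percent, by host, with a point for each cell, a black line for the mean of the host and the treatment in colour. Hosts A7 (2.21%) and V5 (2.10%) lie above the other 6 hosts, whose means run from 1.35% to 1.57%.

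The difference of A7 and V5 from the other hosts ran through nearly all RP genes, and the spread over the hosts was largest for the short ones. In 70 of 75 RP genes A7 and V5 had the 2 highest mean CPM of the 8 hosts, as in 4.66% of the 17213 genes that reached 1 CPM. These hosts were named after their values were seen, so no test was made. Rps21, of the small subunit, with a coding length of 249 bases, had 117 CPM in A7 and 107.4 CPM in V5 and between 36.5 and 47.0 CPM in the other hosts. Rps28, with 207 bases, had 94.9 and 92.1 CPM in A7 and V5 and 26.6 to 43.8 CPM elsewhere. Rps2, a longer gene of 879 bases, differed little, with 322.7 and 300.7 CPM in A7 and V5 and 249 to 300.5 CPM elsewhere. The spread over the 8 hosts, as the coefficient of variation, had a median of 44.8% for the 25 genes with a coding length under 400 bases, 27.4% for the 36 of 400 to 700 bases and 10.9% for the 13 of over 700 bases. Over 74 genes the spread and the coding length ran opposite to each other (Spearman -0.90, a description across genes that share the same cells). Short RP genes also had the lower mean CPM, so length and level are mixed here. Short genes other than RP genes were not compared. The genes in which A7 and V5 were not the 2 highest included Rpl10, Rpl7a, Rpl6l and Rpl39l. Lower depth, a lower share of long genes and a higher share of the mitochondrial genome (1.01% in A7 and 0.913% in V5, against 0.664% to 0.875% in the other hosts) moved with the higher RP share in these hosts, and their part in it was not tested.

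**Figure D2:**
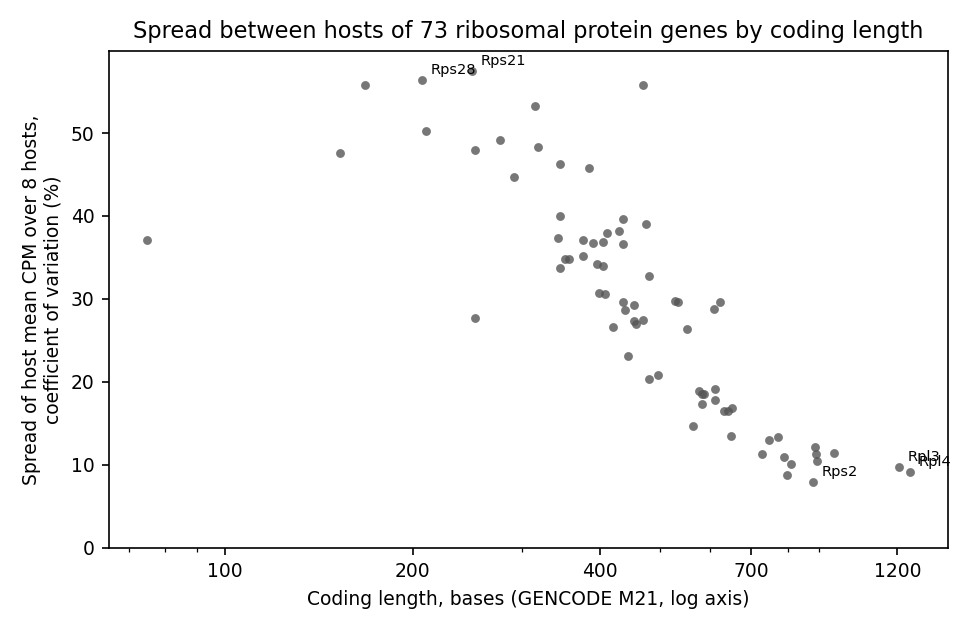
Spread of the host mean CPM over 8 hosts, as coefficient of variation in percent, against coding length in bases on a log axis, for the RP genes with a coding sequence other than Rpl39l, with a point for each gene. The short Rps21 (57.4%) and Rps28 (56.3%) lie at the top left and the longer Rps2 (7.88%) at the bottom right.

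Whether the RP share differs between cycling LZ cells and LZ cells called G1 was asked within each host. Phases were called from 43 S and 54 G2/M genes, with RP genes left out, and gave 252 G1, 235 S and 150 G2/M cells. The mean share in G1 cells ran from 1.30% (A12) to 2.20% (A7), and in cycling (S or G2/M) cells it ran from 1.34% (V9) to 2.22% (A7). The difference of cycling from G1 cells was -0.00212 ± 0.123 percentage points (mean ± SD, n = 8 hosts), with cycling cells higher in 4 of 8 hosts (exact two-sided sign-flip test, p = 0.945, adjusted p = 0.982 over 10 comparisons of the share). The hosts fell on both sides of 0, between -0.170 and 0.187. Cycling cells had more counts, with a median of 868486 against 688930 in G1 cells. The result turned on how cells were combined: with counts summed over the cells the difference was -0.0891 ± 0.0762 points and with the median over cells -0.0932 ± 0.0810 points, cycling cells being higher in 1 of 8 hosts each time (exact p = 0.0234 and 0.0156, adjusted p = 0.234 and 0.156).

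Between the 2 cycling phases, S cells had the higher share in 6 of 8 hosts. Their mean share ran from 1.44% (V7) to 2.45% (A7), and that of G2/M cells from 1.09% (V9) to 2.36% (V5). The difference was 0.177 ± 0.244 points (n = 8 hosts) and did not pass the test (exact sign-flip p = 0.0781, adjusted p = 0.430). V5 and V7 were the hosts in which it ran the other way, with -0.293 points in V5. The median totals of the phases lay close together, 858558 counts in S and 872930 in G2/M cells.

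Myc was detected, with at least 1 count, in 177 of 637 cells. RP genes took a larger share of counts in these cells in 7 of 8 hosts. The mean share of Myc-detected cells was 2.79% in A7, 1.84% in A8, 1.33% in A10, 1.62% in A11, 1.42% in A12, 2.37% in V5, 1.56% in V7 and 1.54% in V9. In the cells without Myc it was 2.13%, 1.40%, 1.67%, 1.44%, 1.35%, 2.03%, 1.51% and 1.24% in the same order. A10 was the exception, with the lower share in its Myc-detected cells. The mean difference of 0.213 ± 0.301 points (n = 8 hosts) was 1.13-fold and did not pass the test (exact sign-flip p = 0.0859, adjusted p = 0.430). Here too a single comparison over 8 hosts could not pass after adjustment. Detection of Myc depends on depth, and the median total was 890495 counts with and 751578 without Myc. Cells were also thinned to the same depth of 459100 counts, and the 64 cells below it were left out. The difference was then 0.156 ± 0.191 points over 7 hosts (exact p = 0.0781), so both the cells and the hosts differ from those above. Some groups were small, with 5 Myc-detected cells in A7 and 6 in V7.

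Split by cycling state, the difference with Myc lay on the same side in G1 cells in 4 of 5 hosts, at 0.206 ± 0.270 points (exact p = 0.188, adjusted p = 0.625), and in cycling cells in 3 of 5 hosts, at 0.0824 ± 0.322 points (exact p = 0.625, adjusted p = 0.982). The hosts were A8, A10, A11, A12 and V9 for G1 cells and A10, A11, A12, V5 and V9 for cycling cells. The values are therefore not from the same hosts. Over the hosts common to both they were 0.139 points in G1 and 0.00490 points in cycling cells. The smallest p that 5 hosts allow in the exact test is 0.0625, so neither comparison could pass. Single hosts decided their size: the G1 value was 0.139 points without A8 and 0.320 without A10, and the cycling value was 0.00490 points without V5, 0.0179 without V9 and 0.203 without A10. In G1 the Myc-detected cells of A11 had 1.79% and the others 1.503%, and in V9 the values were 1.52% and 1.30%. A10 again ran the other way, with 1.35% against 1.60%.

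**Figure D3:**
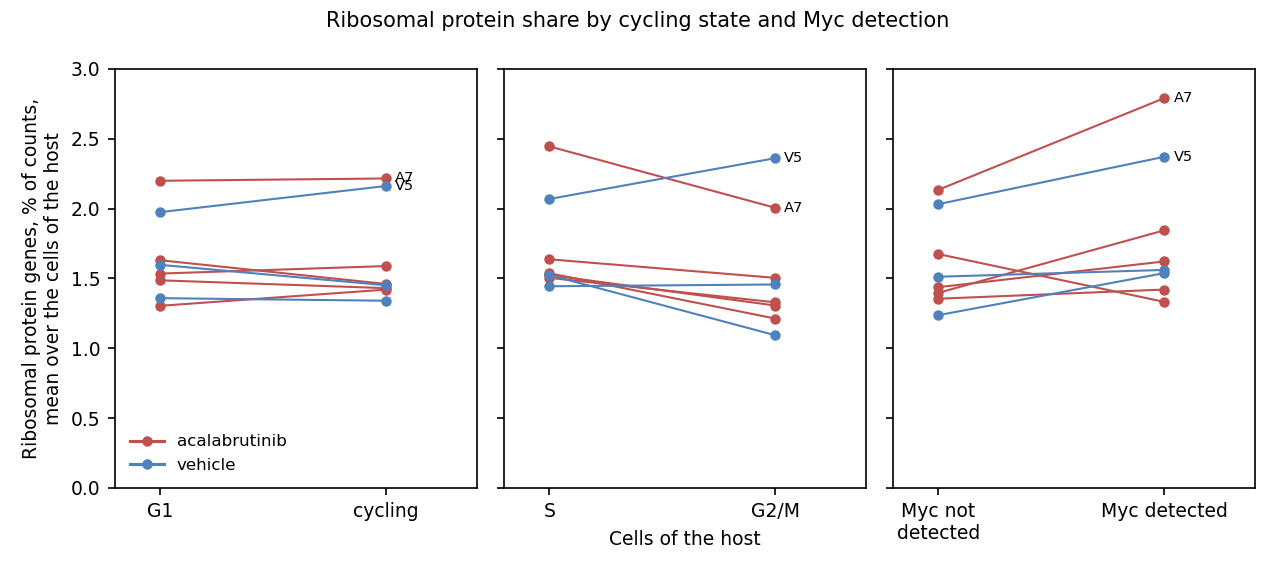
Mean RP share over the cells of each host, in percent of counts, for G1 and cycling cells, for S and G2/M cells and for cells without and with Myc, with a line for each host, coloured by treatment, and A7 and V5 named. Cycling cells lie above G1 cells in 4 of 8 hosts, S above G2/M cells in 6 of 8 and Myc-detected above other cells in 7 of 8. None of the differences passed its test, which a single comparison over 8 hosts could not do after adjustment.

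Acalabrutinib and vehicle hosts did not separate in their RP share. The mean was 1.63 ± 0.333% over 5 acalabrutinib hosts and 1.65 ± 0.395% over 3 vehicle hosts (SD), a difference of -0.0275 points (exact two-sided permutation test over 56 splits, p = 0.946, adjusted p = 0.982). In G1 cells the difference was -0.0127 points (exact p = 0.982) and in cycling cells -0.0281 points (exact p = 0.964). The smallest p that 5 against 3 hosts can reach is 0.018, which in a single comparison could not pass after adjustment over 10 comparisons. Between treatments, the hosts varied by more than the difference of cycling from G1 cells changed (-0.00791 points with acalabrutinib and 0.00753 with vehicle, exact p = 0.893 for the difference between them), and the same held for Myc-detected against other cells (0.202 and 0.230 points, exact p = 0.929). The groups overlapped, and A7 and V5, 1 host in each, set the spread. Without A7 the difference was -0.173 points, without V9 -0.182 points, without V5 0.195 points and without both A7 and V5 0.0496 points.

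Gene by gene, no RP gene passed the test in any of the 3 comparisons. Counts were summed per host and state and tested with the quasi-likelihood test of edgeR, adjusted over all genes tested. In cycling against G1 cells 0 of 74 tested RP genes were higher, beside 2.51% of 12642 genes, and 0 were lower, beside 1.13%. Without adjustment 6 RP genes (8.11%) had an edgeR p under 0.05, a smaller share than the 13.9% of all genes. This order turned on the setting. Under the same limit DESeq2 gave 23 of 75 RP genes and 4318 of 32322 genes. With DESeq2 size factors in edgeR it was 12 of 74 RP genes and 1779 of 12642 genes. DESeq2 called 12 of 75 RP genes lower, beside 2.22% of 32322 genes, and 0 higher, beside 4.87%. The shares given with DESeq2 are of all 32322 genes with a count, including any that it left without an adjusted p, so they can be too low. With DESeq2 size factors in edgeR 1 RP gene was lower, beside 1.49%, and 0 were higher, beside 2.3%. The median log2 fold change of the RP genes was -0.09, with 13 of 74 above 0, and that of all genes tested was 0.14. With DESeq2, run without the filter on low counts, these medians were -0.144 and -0.216. In edgeR they were -0.0939 and -0.0721 without the host term and -0.0534 and 0.379 without the filter. Among the genes with at least 50 CPM, 66 RP genes had a median of -0.10 and 4858 other genes one of 0.03. The median over RP genes of the log2 ratio was below 0 in 6 of 8 hosts, the exceptions being A12 and V9 (0.0032 and 0.011).

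The lowest log2 fold change in cycling cells was that of Rpl27a, a gene of the large subunit singled out, as are the next ones, after the values were seen. Its summed level ran from 75.7 CPM through a median of 101 to 145 CPM in cycling cells and from 105 through 147 to 197 CPM in G1 cells. The ranges overlapped, and cycling cells were lower in 8 of 8 hosts (log2 fold change -0.54 ± 0.17 SE, edgeR adjusted p = 0.132). Rpl4 was lower in 7 of 8 hosts, with a median of 943 CPM against 1094 CPM (log2 fold change -0.18 ± 0.05 SE, edgeR adjusted p = 0.12). Rps27, Rplp0, Rps3, Rpl13 and Rpl17 were among the other RP genes that were lower in all 8 hosts, and none passed the test. The share of all genes that were lower in all 8 hosts was not computed, so nothing particular to RP genes can be read from this. Rps27l went the other way, with a median of 52.7 CPM in cycling and 35.4 CPM in G1 cells, and was higher in 7 of 8 hosts (log2 fold change 0.56 ± 0.35 SE, edgeR adjusted p = 0.57).

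In Myc-detected against other cells 0 of 74 RP genes were called in either direction, beside 0.0393% of 12715 genes called higher and 0.0157% called lower. Without adjustment 3 RP genes (4.05%) had an edgeR p under 0.05, a smaller share than the 8.29% of all genes. Under the same limit DESeq2 gave 9 of 75 RP genes and 3774 of 32322 genes, so this order too turned on the setting. DESeq2 called 2 of 75 RP genes higher, beside 0.767% of 32322 genes, and 0 lower, beside 4.27%. Nearly all lay on 1 side: 70 of 74 had a log2 fold change above 0, with a median of 0.17. The median of all genes tested was -0.42 and that of 4919 other genes with at least 50 CPM was -0.13. The median of all genes turned on tool and setting. It was 0.262 with DESeq2, run without the filter on low counts (RP genes 0.214). In edgeR it was -0.0244 without the host term (RP genes 0.168) and -0.745 without the filter (RP genes 0.104). The 3 genes, singled out by their unadjusted edgeR p, were Rpl10a, Rps2 and Rpl5. Rpl10a had 218 to 361 CPM with Myc (median 300.3) and 181 to 254 CPM without (median 223), and was higher in 7 of 8 hosts (log2 fold change 0.41 ± 0.13 SE, edgeR adjusted p = 0.413). Rpl5, which with Rpl11 and the 5S RNA can bind Mdm2, was higher in 8 of 8 hosts, with a median of 311 against 255 CPM (log2 fold change 0.30 ± 0.12 SE, edgeR adjusted p = 0.554). Rps2 was also higher in 8 of 8 hosts (median 325 against 267 CPM, edgeR adjusted p = 0.553). In contrast Rps3 and Rpl4 had log2 fold changes of 0.0038 ± 0.083 and 0.0099 ± 0.075 (SE).

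In acalabrutinib against vehicle hosts 0 of 75 RP genes were called, beside 0% of 18016 genes in either direction, and no RP gene had an unadjusted edgeR p under 0.05, beside 3.42% of all genes, or was called by DESeq2, beside 1.08% higher and 0.297% lower. The median log2 fold change was -0.05 for RP genes and 0.02 for all genes. In no RP gene did all acalabrutinib hosts lie above or below all vehicle hosts, as they did in 0.953% and 1.15% of genes. The median SE of an RP gene was 0.30, against 0.13 in the cycling comparison, which is made within hosts. Leaving out A7 gave a median of -0.26, leaving out V9 one of -0.25, leaving out V7 one of -0.11, leaving out A12 one of 0.02 and leaving out V5 one of 0.27.

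**Figure D4:**
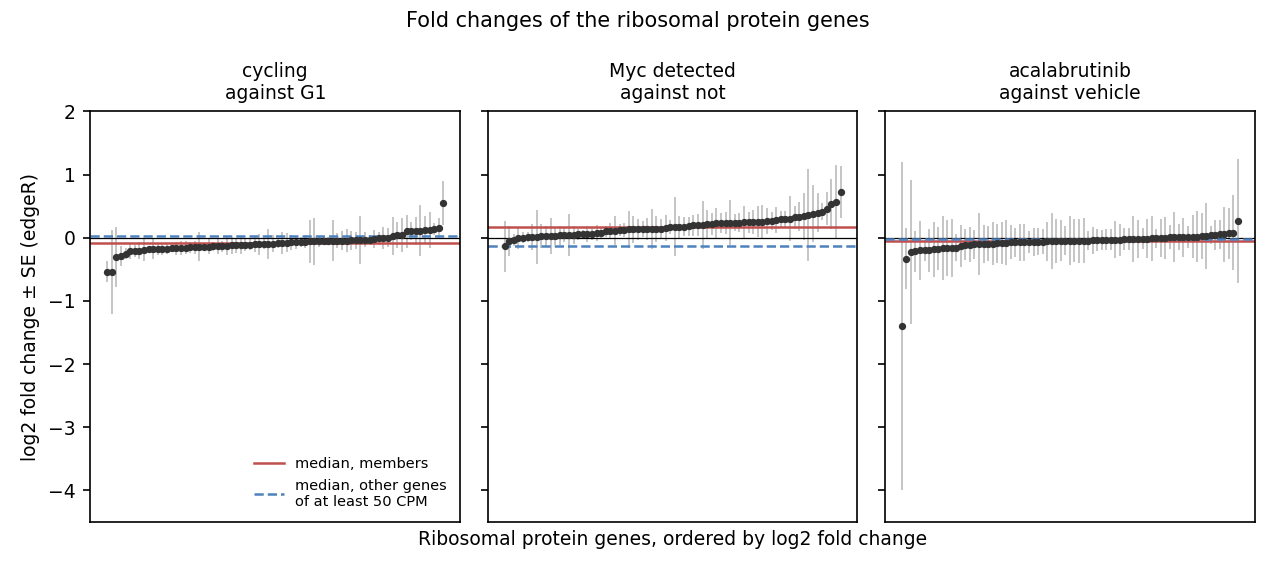
log2 fold change ± SE (edgeR) of each RP gene, in order of its value, for the 3 comparisons, with a solid line for the median of the RP genes and a dashed line for that of the other genes with at least 50 CPM. With Myc detected the RP median lies at 0.17 and the dashed line at -0.13, and with acalabrutinib both lie near 0.

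Other genes of the pathway were described beside the RP genes by the same test. Of 40 ribosome biogenesis genes, such as those of the nucleolar processing factors Fbl, Ncl and Nop56, none was called in either state comparison. Of all genes 2.51% were called higher and 1.13% lower in cycling cells, and 0.0393% and 0.0157% with Myc. With Myc 39 of 40 had a log2 fold change above 0 (median 0.95), beside 28.7% of the genes other than RP genes. In cycling cells 27 of 40 did (median 0.28), beside 57.6% of those genes and a median of 0.14 over all genes. Of 72 mitochondrial RP genes tested 55 lay above 0 in cycling cells (median 0.33, 1 called higher, beside 2.51% of all genes) and 44 with Myc (median 0.13). Of 20 other mRNAs with a TOP tract, mostly of translation factors, 1 was called higher and 3 lower in cycling cells, beside 2.51% and 1.13% of all genes, with a median of -0.01, and none with Myc, with 14 of 20 above 0 and a median of 0.11. With acalabrutinib none of these lists had a called gene, beside 0% of all genes.

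Across the cells of a host, RP genes varied together. For each gene the Spearman correlation of its CPM with the summed CPM of the other RP genes was taken within each host and averaged over the 8 hosts. The median of the 75 genes was 0.563, with 0.474 to 0.609 for the middle 50%, and that of 17138 other genes with the RP total was -0.0093. The medians of the hosts ran from 0.496 (A8) to 0.622 (V9). With the total count of the cell held constant the median was 0.544. All cells of a host share plates and preparation, and values that share a total count are not independent. Pairs of RP genes correlated by 0.345 in the median, and Rps16 with Rps19 was the highest pair at 0.557. The correlation was lower in G1 (median 0.451) than in cycling cells (0.617), which also had more counts.

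The genes closest to the others were Rpl32 (0.690), Rps26 (0.688), Rps16 (0.671), Rps13 (0.666) and the stalk gene Rplp1 (0.656). The loosest were Rpl39l (0.0636), Rpl13a (0.212), Rps27l (0.272) and Rpl6l (0.342). Rpl39l and Rpl6l are the 2 lowest RP genes by CPM, and Rpl13a was detected in 295 cells. Rps27l was detected in 409 cells, against 622 for Rps27, whose correlation was 0.525. Rpl22, which is known to repress Rpl22l1, had 0.354, and Rpl22l1 had 0.320.

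Among the other genes with at least 50 CPM, the 10 closest to the RP total were Rps3a1 (0.579), Fau (0.575), Ppia (0.575), Eef1a1 (0.573), Pfn1 (0.537), Tpt1 (0.509), Tmsb4x (0.472), Tmsb10 (0.463), Btf3 (0.460) and Cox4i1 (0.455). Each was positive in 8 of 8 hosts. Rps3a1 and Fau encode RPs that the name pattern leaves out. Eef1a1, Tpt1 and Btf3 are among the 20 other TOP mRNAs, whose median was 0.259. Ppia (cyclophilin A), Pfn1 (profilin) and the thymosins Tmsb4x and Tmsb10 are short, abundant mRNAs of other functions. Ribosome biogenesis genes had a median of 0.0913 and mitochondrial RP genes one of 0.0856.

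**Figure D5:**
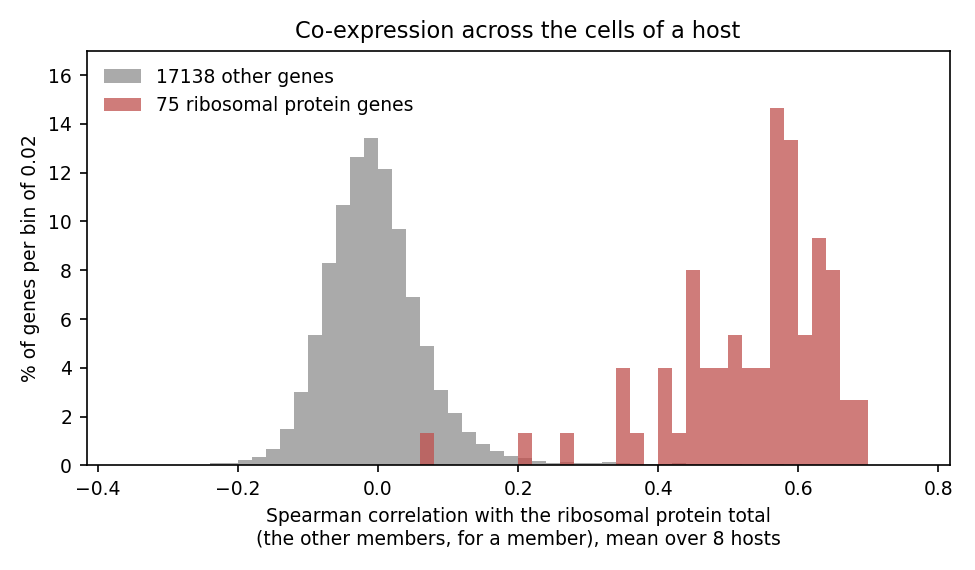
Spearman correlation with the RP total across the cells of a host, averaged over 8 hosts, for the RP genes and for all other genes with at least 1 CPM, in percent of the genes per bin. The other genes center near 0 and the RP genes near 0.56, with Rpl39l, Rpl13a and Rps27l as the 3 lowest.

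The balance between the subunits, averaged over hosts, varied little between states. Small subunit genes made up 39.4 ± 1.02% of the RP counts (mean ± SD, n = 8 hosts, 38.4% to 41.4%), large subunit genes 53.6 ± 0.884% and stalk genes 7.06 ± 0.245%. In G1 cells the small subunit share was 39.2 ± 0.939% and in cycling cells 39.5 ± 1.13%. With Myc detected it was 39.2 ± 0.763% and without 39.4 ± 1.06%. It was 39.5 ± 1.16% in acalabrutinib hosts and 39.3 ± 0.932% in vehicle hosts. Each of these differences of means in the small subunit was smaller than the SD between hosts, which does not measure the change within a host. Within hosts the share moved both ways from G1 to cycling cells, from 39.5% to 40.7% in V5 and from 39.9% to 39.4% in A8. The stalk share stood apart in G1 cells, where it was 6.96%, 6.87%, 6.30%, 6.74% and 7.06% in A7, A8, A10, A11 and A12 and 7.72%, 7.25% and 7.81% in V5, V7 and V9. There the treatment groups did not overlap (6.79 ± 0.297% and 7.59 ± 0.302%). In cycling cells the order was the other way, with 7.14 ± 0.365% and 6.93 ± 0.426%. These shares were compared as a description, with no test, and the G1 value was singled out among several after the values were seen.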

How the data were processed

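Single LZ GC B cells were sequenced by SMART-seq2. The deposited matrix holds whole counts, not normalized, of 56691 genes in 637 cells. The authors made it with STARsolo 2.7.10a on GRCm39, where a read in an exon or an intron counts for its gene. The submitters' processing notes also list GRCm38. SMART-seq2 adds no molecular identifiers, and reads were deduplicated by exact position, so counts are not independent molecules and limits cover counting error only. Wells held 1 sorted cell, so doublets were not called. The study's limits on cells (mitochondrial share above 5%, fewer than 200 genes) left 637 of 637, so all were used. No column of per-sample values was left unused. The gene lists and RP genes were chosen with earlier results of these data known.

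CPM and shares were computed in Python (3.11.15) using pandas 2.3.3, NumPy 2.4.6 and SciPy 1.17.1, phases with Seurat 5.3.0 in R 4.3.3. Correlations are ranks of CPM within a host. A share is the percent of a cell's deposited counts in the 75 RP genes, averaged over the cells of a host. A host needed at least 5 cells on each side. Differences within hosts were tested by exact two-sided sign-flip tests (smallest p 0.0078 with 8 hosts) and treatments by exact permutation over 56 splits of hosts, with Benjamini-Hochberg adjustment over 10 comparisons. Summed counts were tested with edgeR 4.0.16 (quasi-likelihood, TMM, filter on low counts, host as a term in the comparisons within hosts, threshold 0.05), and DESeq2 1.42.0 was the other tool. The edgeR step was tested on simulated data with 200 genes altered 4-fold. It found 31.0% of them for cycling against G1 (12500 genes), for Myc (12585 genes) 24.5%, and for treatment (17371 genes) 32.0%. These shares were not taken for RP genes. Their median SE in cycling against G1 was 0.130, against 0.755 for the other genes. P-values of the comparisons within hosts rest on how the difference within a host varied over hosts. Those of the treatment comparisons rest on the spread between hosts. The study made its hosts in 2 experiments that were not tied to hosts in the sources used here. Named in full were the 6 highest and lowest genes by CPM, those beside the limit of 1 CPM, called genes with the largest change, the 5 closest and 5 loosest in correlation, the related pairs, and the 10 other genes closest to the RP total. Some genes that this rule names are not reported here.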

Additional observations from a re-analysis of the deposited data

Results flagged for a closer look

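Of 23 groups of hosts examined, 6 held a host that lay far from the others of its group by the ratio of Dixon, each time A7 among the 5 acalabrutinib hosts. Chance gives about 1 such case in 20 groups, and the groups share hosts and genes, so these cases are not independent. The mean RP share of A7 was 2.21%, with 1.57% in the next host. In its cycling cells the share was 2.22% (next 1.59%) and in its S cells 2.45% (next 1.64%). Rplp0 had 977 CPM in A7 (next 798), Rpl38 had 72.8 CPM (next 35.3) and Rpl23a had 55.3 CPM (next 22.4). The 3 vehicle hosts were too few for this rule. The difference of cycling from G1 cells and that of Myc-detected from other cells did not differ between treatments beyond the test's threshold (exact permutation p = 0.893 and 0.929).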

How the results depend on the processing

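The differences of the RP share that lay near 0 changed sign with small changes of method. No difference of the share passed an adjusted p of 0.05 under any alternative run. A single comparison at the smallest p its hosts allow could not pass after adjustment over 10 comparisons. Passing needed small p-values in more than 1 comparison at once, so the lack of a pass says little about the differences. Cycling minus G1 was 0.00716 points within plates. Acalabrutinib minus vehicle was 0.0496 points without A7 and V5, in G1 cells 0.0108, and in cycling cells 0.0793, with 0.0050 in thinned cells and 0.00464 with cells halved by their S and G2/M gene share. The change of the cycling difference with treatment was 0.0159 with medians over cells, 0.0740 in thinned cells, 0.0631 with halved cells and 0.0684 without A7 and V5. The change of the Myc difference with treatment was 0.0487 with summed counts, 0.0378 with medians and 0.00273 in thinned cells. Leaving out 1 host at a time gave -0.0292 to 0.0219 for cycling minus G1, -0.182 to 0.195 for acalabrutinib minus vehicle (-0.155 to 0.153 in G1 and -0.184 to 0.228 in cycling cells), -0.0923 to 0.0745 for the change of the cycling difference and -0.141 to 0.109 for that of the Myc difference. S minus G2/M lay between 0.140 and 0.244, Myc detected minus not between 0.149 and 0.292, and the latter between 0.139 and 0.320 in G1 and 0.00490 and 0.203 in cycling cells. S minus G2/M was 0.0887 with medians and 0.0871 without cells above 4%, and Myc detected minus not 0.119 with medians, 0.134 without cells above 4% and 0.118 without A7 and V5. Leaving out A8, A11, V7 or V9 turned the sign of cycling minus G1, and leaving out A8, A12 or V5 that of acalabrutinib minus vehicle. The causes were not tested.

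Instead of 0 RP genes, 12 were called lower in cycling cells by DESeq2 (2.22% of all genes with a count). With DESeq2 size factors in edgeR 1 was called lower (1.49% of all genes). With Myc 2 were called higher by DESeq2 (0.767% of all genes with a count). DESeq2 was run without the filter on low counts. The other counts were 0 under all alternatives run, leaving out a host and omitting the host term included. No paired analysis was possible between treatments because the acalabrutinib and vehicle hosts share only 1 number, which marks different mice. Taking out A7 and V5, taking out cells above 4%, and the fit of the share on depth were added after the data were seen. Fitted on depth within hosts, S minus G2/M was 0.172 and Myc detected minus not 0.185 on the log2 scale (exact p = 0.0234 and 0.0469, adjusted p = 0.234 for both). The fit is a straight line in each host whose slope differed in sign between hosts, and the part of single cells in it was not tested.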

Other observations

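Rows named as RP pseudogenes, 322 in all, held between 0.0151% (V9) and 0.0288% (A7) of counts by host, with A7 and V5 (0.0281%) again the highest. The highest such row was Rpl10a-ps1 at 18.8 CPM, with counts in 93.4% of cells. Since these rows nearly copy RP genes, reads can be split between them and the genes. The slope of the log2 RP share on the log2 total count was below 0 in 5 of 8 hosts, from -0.402 in A12 to 0.358 in A8. By ranks the share hardly moved with the total count in these 2 hosts (Spearman -0.0748 in A12 and 0.0138 in A8). A12 holds the cell with the highest share (7.08%) and A8 the cell with the lowest (0.159%). The part of single cells in the slopes was not tested.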
